A study of Mus musculus with 4 samples.

Results

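The genes described here are 8 transcripts that T cells switch on when the T cell receptor (TCR) is engaged: the nuclear receptors Nr4a1, Nr4a2 and Nr4a3, the zinc finger factors Egr1, Egr2 and Egr3, the transcription factor Myc and the surface protein Cd69. They were chosen by name, from rows whose gene name is one of these symbols, with the transcript row of highest mean used for each gene. All 8 were present among 14220 named genes, and each averaged 1 RPKM or more (RPKM, reads scaled by transcript length and by all reads of the library). They were therefore among the 10709 genes tested. Regulatory T (Treg) cells, which express Foxp3 and hold immune responses in check, were sorted from C57BL/6 spleens for 4 RNA-seq libraries. Wild-type (WT) mice gave 2 of them, and the other 2 were from animals whose Treg cells carry a conditional knockout (cKO) of Nsd2, an enzyme that dimethylates lysine 36 of histone H3. RNA of 3 or more mice was pooled for each library, so libraries of a group differ as pools. Neither group was labelled with a treatment. Which Cre driver was used, which exons were deleted, how the cells were gated and how old the mice were is not given here.

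Engagement of the TCR starts kinase and calcium signals that reach the nucleus within minutes. The extracellular signal-regulated kinases (ERK) act through the serum response factor on Egr genes, and calcium acts through calcineurin, NFAT and MEF2 factors on Nr4a genes. Nr4a1, widely used as a reporter of TCR signal strength, and its relatives bind DNA without a known physiological ligand. In Treg cells the Nr4a factors support Foxp3 expression. Egr2 and Egr3 restrain T cell activation, Myc drives the growth and metabolism of activated cells, and the Cd69 protein holds lymphocytes in tissue by pulling the receptor S1pr1 from the cell surface. Treg cells recognise self antigens in the resting animal, and such genes can be transcribed in them without added stimulation. What set their levels in these libraries was not tested.

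The bases upstream of the start sites are shown for 3 of the genes because Nr4a1 and Nr4a2 lie far apart in level, as given below, and carry the same short element. Sequences are from RefSeq on GRCm38.p6, the assembly that mm10 names, and each covers the 250 bases before a transcription start, 5′ to 3′ on the strand of the gene. Capitals mark the half-site of the cyclic AMP response element (CRE; CGTCA, or TGACG on the opposite strand) and, in Egr2, the CArG box to which the serum response factor binds. The windows are chr15:101266596-101266845 on the plus strand for Nr4a1, chr2:57124004-57124253 on the minus strand for Nr4a2 and chr10:67537619-67537868 on the plus strand for Egr2. None of them overlapped an exon of GENCODE M21.
Nr4a1: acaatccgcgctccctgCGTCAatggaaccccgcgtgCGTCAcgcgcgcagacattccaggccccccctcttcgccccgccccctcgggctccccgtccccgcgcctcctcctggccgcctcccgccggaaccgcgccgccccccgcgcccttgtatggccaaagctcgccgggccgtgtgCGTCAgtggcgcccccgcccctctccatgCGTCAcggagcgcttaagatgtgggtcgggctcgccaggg
Nr4a2: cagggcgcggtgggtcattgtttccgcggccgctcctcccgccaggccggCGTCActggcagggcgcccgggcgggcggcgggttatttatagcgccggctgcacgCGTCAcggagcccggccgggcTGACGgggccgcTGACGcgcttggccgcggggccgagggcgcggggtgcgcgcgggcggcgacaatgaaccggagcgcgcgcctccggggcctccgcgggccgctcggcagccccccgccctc
Egr2: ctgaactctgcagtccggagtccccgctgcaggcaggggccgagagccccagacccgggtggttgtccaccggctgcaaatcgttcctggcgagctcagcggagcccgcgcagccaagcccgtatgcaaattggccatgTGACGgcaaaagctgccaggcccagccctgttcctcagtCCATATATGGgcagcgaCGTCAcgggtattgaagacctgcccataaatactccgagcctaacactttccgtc

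The Nr4a1 and Nr4a2 windows each held 4 CRE half-sites. The Nr4a3 window also held 4, but it overlapped an annotated exon of that gene and is not printed. Of 32851 windows of this length in the RefSeq table, 17.8% held at least 1 half-site and 0.137% held 4 or more. The Egr2 window shown is 1 of 5 for that gene. It held 2 half-sites (at least 2 occurred in 3.90% of all windows) and 1 CArG box, found in 1.47% of windows. The Nr4a1 and Egr2 windows lie inside the spans given below for these genes. The EGR site GCGNGGGCG, on either strand, occurred once each in the Nr4a1 and Nr4a2 windows and in 4.70% of all windows. None of these matches overlapped another. The 4 windows had no match on either strand to the Nr4a monomer site AAAGGTCA, the E-box CACGTG bound by Myc with Max, or the NFAT core GGAAAA. The GC content was 74.4% for Nr4a1, 80.0% for Nr4a2 and 61.6% for Egr2 against a median of 52.4% for all windows. No binding or chromatin data were analysed here, and the matches are a description of sequence. The table had no window for the other 4 genes.

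The libraries held an estimated 19132000 to 21260000 reads, read from the steps between low values. The targeted gene, listed under its older name Whsc1, reached 6.82 RPKM in WT replicate 1, 7.44 RPKM in WT replicate 2, 3.46 RPKM in cKO replicate 1 and 4.27 RPKM in cKO replicate 2. Its log2 fold change had a 95% interval of -1.12 to -0.37 in limma (unadjusted p = 0.00308, adjusted p = 0.9998). Foxp3, which defines Treg cells, was between 113 and 145 RPKM in every library. The summed level of 12 myeloid and dendritic cell markers was 29.5 RPKM in cKO replicate 1 and 10.1 to 16.4 RPKM in the other 3 libraries. The 5 erythroid and platelet markers with a row summed to 43.0 RPKM there and to 7.37 to 24.4 RPKM elsewhere. The 6 B cell markers with a row summed to 8.75 RPKM in WT replicate 1, 7.12 RPKM in WT replicate 2, 12.1 RPKM in cKO replicate 1 and 11.3 RPKM in cKO replicate 2, with the marker Fcer2a at 0 in WT replicate 1. The 7 CD8 T and NK cell markers with a row summed to 22.5 to 25.2 RPKM. The sum of 15 heat shock and handling stress genes was 2392 RPKM in WT replicate 1 and 3180 RPKM in WT replicate 2. It was lower in both cKO libraries, at 2073 RPKM in replicate 1 and 1809 RPKM in replicate 2.

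None of the 8 TCR-induced genes passed the test between genotypes. Their log2 fold changes, cKO minus WT on the log2(RPKM + 1) scale, ran from -0.38 for Cd69 to 0.03 for Myc, with a median of -0.15. Over all 10709 genes limma called 0.0% at an adjusted p under 0.05 and 3.1% at an unadjusted p under 0.05. The 8 genes had 0 calls at either level in this fit. Without cKO replicate 2, Cd69 had an unadjusted p of 0.00615 (limma adjusted p = 0.372), in a fit where 535 of all genes were under 0.05 unadjusted. Of the 8 genes, 7 had a log2 fold change below 0, as did 40.8% of all genes tested, whose median was 0.03. With median-of-ratios scaling of the libraries all 8 were below 0, and so were 51.9% of all genes. Leaving out 1 library put 5 genes below 0 when it was WT replicate 1 and 8 when it was WT replicate 2, and 7 or 6 when it was the first or the second cKO replicate. The median of the 8 was -0.08 without WT replicate 1. Both cKO libraries lay below both WT libraries for Cd69, Egr1 and Egr2, and above them for none of the 8. Over all genes the background was 9.06% below and 17.4% above. None of the 8 also differed by 1.5-fold in its means, which held for 0.766% of all genes in the lower and 1.68% in the higher direction. Of all genes whose groups did not overlap, 65.7% were higher in cKO as deposited and 50.7% with median-of-ratios scaling. Under that scaling the same 3 of these 8 genes were below, beside 12.7% of all genes tested. In RNA from a whole sorted population, fewer cells that express a gene and less of its RNA per cell cannot be told apart.

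**Figure D1:**
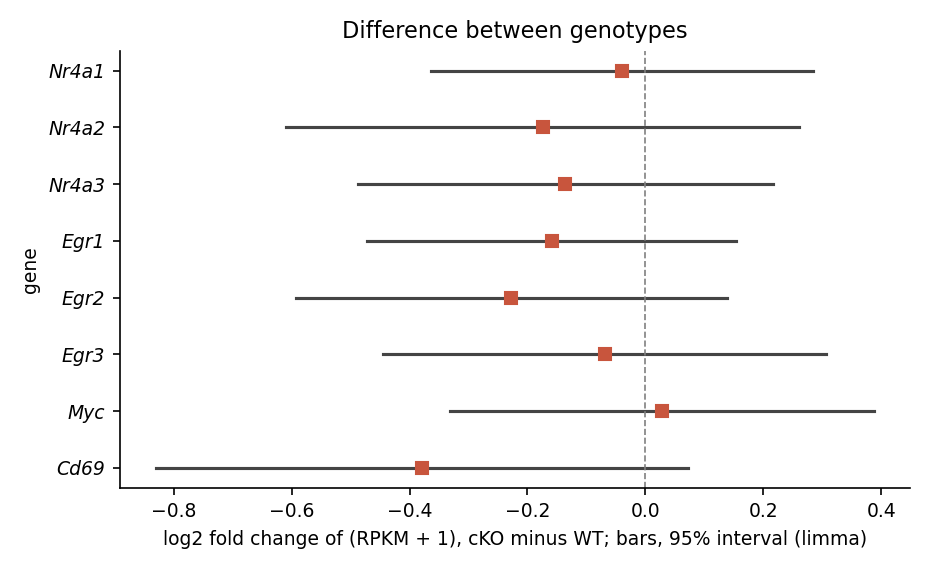
Log2 fold change of each gene on the log2(RPKM + 1) scale, cKO minus WT (squares), with the 95% interval from limma (bars, 2 libraries per group). All 8 intervals span 0. The Cd69 interval lies farthest to the left, from -0.83 to 0.07.

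Nr4a1 (GRCm38 chromosome 15, 101253902 to 101274795) had WT values of 54.5 and 48.4 RPKM beside cKO values of 51.9 and 48.0 RPKM. The groups overlapped, and within each genotype the library numbered 1 was the higher. The means were 51.4 ± 4.30 and 49.9 ± 2.73 RPKM (SD, n = 2 each), so the cKO mean was 97.1% of WT. The limma log2 fold change was -0.04 with a standard error of 0.13 and a 95% interval of -0.36 to 0.28, which corresponds to 0.777-fold to 1.22-fold. Of the 8 genes it varied least, with a highest library 1.13 times the lowest, where the median gene tested had a ratio of 1.29.

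Nr4a3 (chromosome 4, 48045078 to 48086447), the second most abundant of the family, had 11.7 and 14.2 RPKM in the WT libraries, and its cKO values were 12.04 and 11.3 RPKM. WT replicate 2 was the highest library, and WT replicate 1 lay between the 2 cKO libraries. The cKO mean was 90.0% of WT and the log2 fold change was -0.14, with a 95% interval of -0.49 to 0.22 in limma. Nr4a2 (chromosome 2, 57106830 to 57124003), best known from dopamine neurons, was the scarcest of the 8. It reached 1.78 RPKM in WT replicate 1, 1.92 RPKM in WT replicate 2, 1.22 RPKM in cKO replicate 1 and 1.86 RPKM in cKO replicate 2. cKO replicate 1 was low, at an estimated 80 reads against 119 and 125 in the WT libraries and 136 in the other cKO library, while cKO replicate 2 lay within the WT range. At 80 reads counting error alone gives a coefficient of variation of 11.2%. The log2 fold change of -0.17 had a standard error of 0.18, and without cKO replicate 1 it was 0.0095. The second Nr4a2 row of the files gave a cKO mean 0.864 times that of WT, against 0.835 for the row used, and the rows are not independent measurements.

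Taken as a sum, the 3 Nr4a transcripts had WT values of 68.0 and 64.5 RPKM beside cKO values of 65.1 and 61.1 RPKM. Nr4a1 made up 75.1% to 80.1% of the sum, Nr4a3 17.2% to 22.0% and Nr4a2 1.87% to 3.05%. Nr4a1 was thus the main transcript of the family in both genotypes. Nr4a1 exceeded Nr4a2, whose window carries the same number of CRE half-sites, by 30.6 and 25.3 times in the WT libraries and by 42.5 and 25.7 times in the cKO libraries. The value of 42.5 belongs to cKO replicate 1, where Nr4a2 was low.

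**Figure D2:**
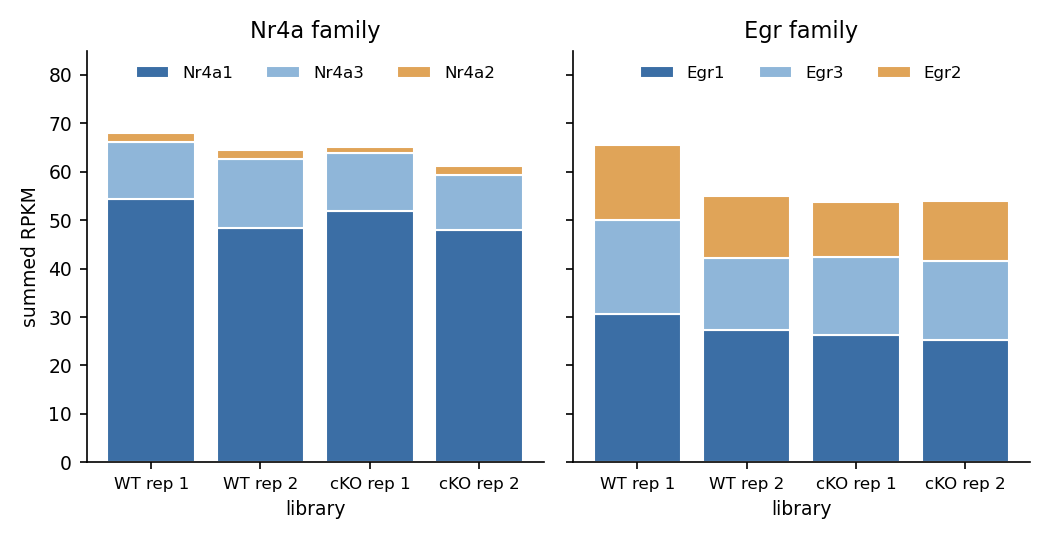
Stacked RPKM of the 3 Nr4a genes (left) and the 3 Egr genes (right) in each of the 4 libraries. Nr4a1 is the largest part of the Nr4a sum in every library, and WT replicate 1 has the highest Egr sum, 65.6 RPKM against 53.8 to 55.0 RPKM in the other 3.

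Egr1 (chromosome 18, 34861207 to 34864956), an immediate early factor downstream of ERK, had 30.7 and 27.2 RPKM in the WT libraries, and its cKO values were 26.3 and 25.3 RPKM. The groups did not overlap, but the gap between the lower WT and the higher cKO library was smaller than the spread between the WT libraries. The means were 29.0 ± 2.45 and 25.8 ± 0.735 RPKM (SD, n = 2 each), a cKO mean 89.1% of WT. The log2 fold change was -0.16 with a standard error of 0.13 (limma unadjusted p = 0.255, adjusted p = 0.9998), and it was -0.08 without WT replicate 1 and -0.24 without WT replicate 2.

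Egr2 (chromosome 10, 67534469 to 67542188) reached 15.6 RPKM in WT replicate 1, 12.7 RPKM in WT replicate 2, 11.3 RPKM in cKO replicate 1 and 12.4 RPKM in cKO replicate 2. Here too the groups were apart, WT replicate 2 and cKO replicate 2 being close and WT replicate 1 alone being high. The means were 14.1 ± 2.07 and 11.9 ± 0.755 RPKM (SD, n = 2 each), a cKO mean 84.0% of WT. The log2 fold change of -0.23 had a 95% interval of -0.59 to 0.14 (limma unadjusted p = 0.176, adjusted p = 0.9998). It was -0.09 without WT replicate 1 and -0.37 without WT replicate 2. Egr3 (chromosome 14, 70077317 to 70082613), which acts with Egr2 in restraining T cells, reached 19.3 RPKM in WT replicate 1, 15.05 RPKM in WT replicate 2 and 16.2 RPKM in both cKO libraries. The cKO libraries lay between the 2 WT libraries, and the log2 fold change was -0.07 with a 95% interval of -0.44 to 0.31.

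The summed Egr level was 65.6 and 55.0 RPKM in the WT libraries, and the cKO sums were 53.8 and 53.9 RPKM. WT replicate 1 stood apart from the other 3 libraries, and it was the highest library for each of Egr1, Egr2 and Egr3. Within the sum, Egr1 was the largest part in every library. Egr1 gave 46.8% to 49.6% of it, Egr3 27.4% to 30.1% and Egr2 21.1% to 23.8%. The fourth relative, Egr4, lay below the level tested, with WT values of 0.293 and 0.099 RPKM beside cKO values of 0.570 and 0.381 RPKM. Nab2, a corepressor that binds Egr proteins and is itself induced by them, had WT values of 37.7 and 29.6 RPKM beside cKO values of 37.6 and 29.5 RPKM. Its log2 fold change was -0.0045 with a 95% interval of -0.46 to 0.45. The related Nab1 had 8.93 and 13.1 RPKM in the WT libraries, and its cKO values were 9.84 and 12.4 RPKM.

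Myc (chromosome 15, 61985341 to 61990361) was the most abundant of the 8. It reached 69.2 RPKM in WT replicate 1, 57.1 RPKM in WT replicate 2, 66.4 RPKM in cKO replicate 1 and 61.8 RPKM in cKO replicate 2, so that both cKO libraries lay within the WT range. The means were 63.1 ± 8.58 and 64.1 ± 3.26 RPKM (SD, n = 2 each). The log2 fold change was 0.03 with a 95% interval of -0.33 to 0.39 in limma, which corresponds to 0.795-fold to 1.31-fold, and its sign turned with median-of-ratios scaling, to -0.0098. The files hold 4 Myc rows with nearly identical values, which are 1 measurement. Of 30 genes listed as Myc targets, 0 passed the test over all genes. The log2 fold change was positive for 26 of the 30 (median 0.10), beside 6335 of all 10709 genes. With median-of-ratios scaling it was positive for 21 of the 30, beside 5150 of all genes. Without cKO replicate 2 it was positive for 17 of the 30 (median 0.04), beside 5736 of all genes. Rcc1, a chromatin-bound activator of the GTPase Ran, had the lowest p of this list (limma unadjusted p = 0.0412, adjusted p = 0.9998). It had WT values of 9.24 and 9.20 RPKM beside cKO values of 11.6 and 11.9 RPKM. Cdk4, a kinase of the G1 phase, had WT values of 54.6 and 51.4 RPKM beside cKO values of 62.2 and 61.8 RPKM, and Slc7a5, a transporter of large neutral amino acids, had a cKO mean 1.19 times that of WT. Both cKO libraries were above both WT libraries for 9 of the 30 genes and below them for 1, beside 17.4% and 9.06% over all genes.

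No gene of the Myc network or partner of the Nr4a and Egr factors passed the test. Mxd4, which opposes Myc by binding Max, had 90.8 and 97.9 RPKM in the WT libraries, and its cKO values were 97.4 and 89.7 RPKM. Mlxip, a glucose-responsive partner of Mlx, had the lowest p of the 16 partners and regulators tested. It reached 38.1 RPKM in WT replicate 1, 29.6 RPKM in WT replicate 2, 24.2 RPKM in cKO replicate 1 and 22.8 RPKM in cKO replicate 2, with a log2 fold change of -0.50 (limma unadjusted p = 0.0204, adjusted p = 0.9998). Mxd3 had a cKO mean 1.21 times that of WT, as had Rxra, the retinoid receptor that pairs with Nr4a1 and Nr4a2. Of these 16 genes, 0 passed, 5 had a log2 fold change above 0 and the median was -0.03. Without WT replicate 2, 8 were above 0 and the median was 0.0040. In the other fits that leave out a library the median was -0.05 for WT replicate 1 and, for the cKO replicates, -0.01 and -0.06.

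Cd69 (chromosome 6, 129267324 to 129275375) had the largest difference of the 8. It had WT values of 42.9 and 46.9 RPKM beside cKO values of 29.1 and 40.3 RPKM. Both cKO libraries were below both WT libraries, and cKO replicate 1 alone was far below. The means were 44.9 ± 2.83 and 34.7 ± 7.94 RPKM (SD, n = 2 each), a WT mean 1.29 times that of cKO. The log2 fold change was -0.38 with a standard error of 0.18 and a 95% interval of -0.83 to 0.07 (limma unadjusted p = 0.0853, adjusted p = 0.9998). It was -0.15 without cKO replicate 1 and -0.61 without cKO replicate 2. cKO replicate 1 is also the library with the highest sums of myeloid and erythroid markers, and their part in this value was not tested. S1pr1, the sphingosine-1-phosphate receptor on which the Cd69 protein acts, had 116 and 129 RPKM in the WT libraries, and its cKO values were 118 and 123 RPKM, with a log2 fold change of -0.02 and a 95% interval of -0.34 to 0.29.

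By mean level over the 4 libraries the order was Myc, Nr4a1, Cd69, Egr1, Egr3, Egr2, Nr4a3 and Nr4a2. RPKM is scaled by transcript length, so levels of different genes can be set side by side if the inferred unit holds. How reads shared by transcripts were counted is not known. Myc, at 63.6 RPKM, lay at percentile 92.8 of the genes tested, Nr4a1 at percentile 90.3 and Nr4a2, at 1.69 RPKM, at percentile 7.01. The ranges of Myc and Nr4a1 did not overlap, nor did those of Nr4a1 and Cd69. Cd69 and Egr1 overlapped in range, since Cd69 in cKO replicate 1 fell below Egr1 in WT replicate 1, but Cd69 was the higher in each of the 4 libraries. Egr3 was above Egr2 in 4 of 4 libraries with overlapping ranges. Egr2 and Nr4a3 could not be ordered, each being the higher in 2 libraries.

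**Figure D3:**
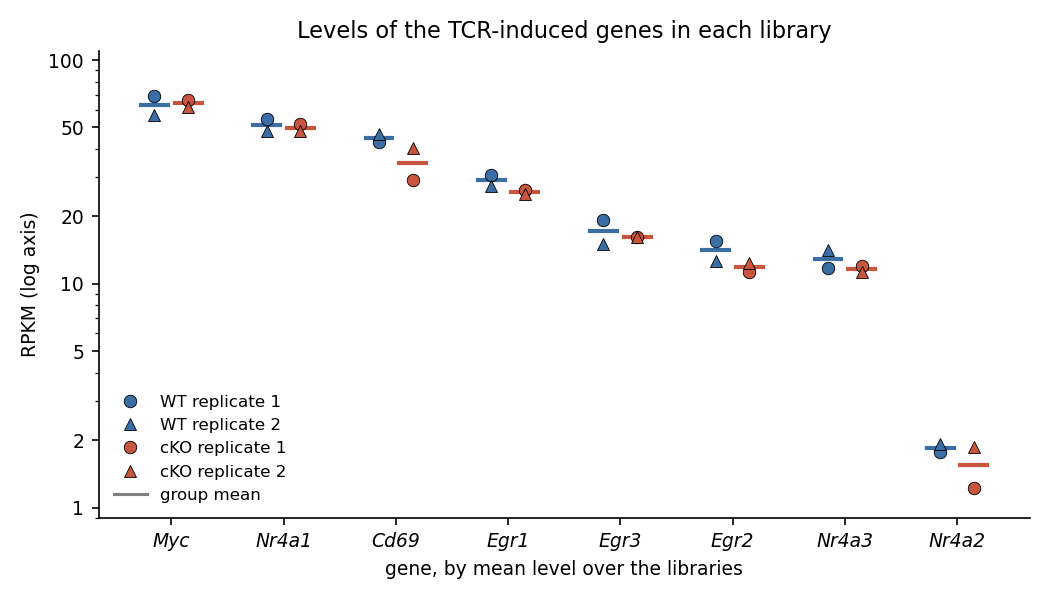
RPKM on a log axis for each of the 8 genes in each library (circles, replicate 1; triangles, replicate 2), with the mean of each group as a line. The genes span from 1.22 RPKM for Nr4a2 in cKO replicate 1 to 69.2 RPKM for Myc in WT replicate 1, and cKO replicate 1 is the lowest library for Cd69, Nr4a2 and Egr2.

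**Figure D4:**
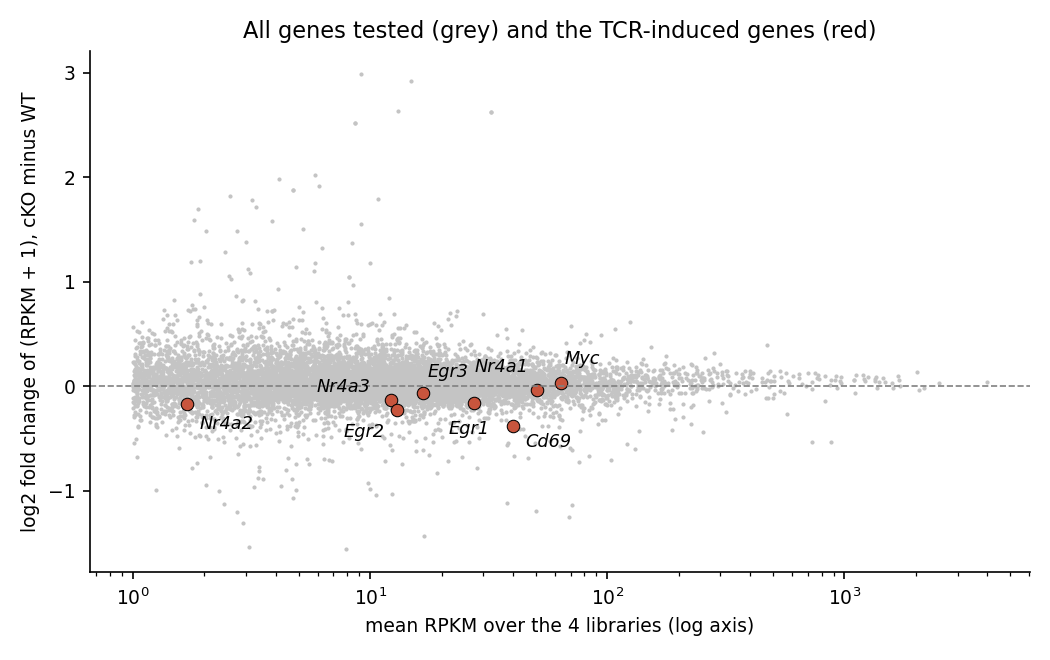
Log2 fold change (cKO minus WT, on the log2(RPKM + 1) scale) against mean RPKM (log axis) for the 10709 genes tested (grey), with the 8 TCR-induced genes in red. Of the 8, 7 lie below 0 and inside the cloud of other genes, and Cd69, at -0.38, lies lowest.

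Upstream of these genes, the TCR complex and its proximal kinases showed no change that passed the test. Of 20 genes in that list 0 passed, 9 had a log2 fold change above 0 and the median was -0.01. With median-of-ratios scaling 7 were above 0. Without WT replicate 1, or without cKO replicate 2, 15 were above 0, with medians of 0.05 and 0.03, and without WT replicate 2 the median was 0.02. Ptpn22, a phosphatase that dampens Lck and Zap70, had the lowest p, with WT values of 53.5 and 67.0 RPKM beside cKO values of 41.0 and 50.8 RPKM (limma unadjusted p = 0.0721, adjusted p = 0.9998). Rasgrp1, which activates Ras after TCR engagement, had a cKO mean 1.16 times that of WT, and Cd3g, a chain of the receptor complex, 1.10 times. In the relay through ERK, the serum response factor and calcineurin, 0 of 19 genes passed, 11 were above 0 and the median was 0.0065. With median-of-ratios scaling 6 were above 0 and the median was -0.03. Over the 4 fits that leave out a library the median ran from -0.04 without cKO replicate 1 to 0.02 without cKO replicate 2, and it was -0.0067 and -0.02 without WT replicates 1 and 2. Mef2a reached 9.60 RPKM in WT replicate 1, 10.4 RPKM in WT replicate 2, 7.29 RPKM in cKO replicate 1 and 8.74 RPKM in cKO replicate 2. Mapk3, which encodes ERK1, had a cKO mean 1.20 times that of WT, and Elk3, an ETS partner of the serum response factor, 1.14 times.

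None of the other genes that TCR signals induce passed the test, and their differences lay on both sides of 0. Of 31 tested, 0 passed, 16 had a log2 fold change above 0 and the median was 0.02. With median-of-ratios scaling 14 were above 0 and the median was -0.02. The median was also below 0 without WT replicate 2 (-0.02) and without cKO replicate 1 (-0.04). Both cKO libraries were below both WT libraries for 7 of them and above for 3, beside 9.06% and 17.4% of all genes. Tnfaip3, a deubiquitinase that limits NF-kB, had WT values of 41.2 and 41.8 RPKM beside cKO values of 29.7 and 36.4 RPKM. Like Cd69 it was lowest in cKO replicate 1. Pdcd1, the inhibitory receptor PD-1, had 38.5 and 38.4 RPKM in the WT libraries, and its cKO values were 33.3 and 32.2 RPKM. Fosl2, an AP-1 subunit, had the lowest p of the list, with WT values of 1.60 and 3.52 RPKM beside cKO values of 1.17 and 0.826 RPKM (limma unadjusted p = 0.0342, adjusted p = 0.9998). Tnfrsf9, the costimulatory receptor 4-1BB, varied little, with WT values of 36.9 and 34.7 RPKM beside cKO values of 34.6 and 34.9 RPKM. Irf4, whose level follows TCR signal strength, reached 11.1 RPKM in WT replicate 1, 12.6 RPKM in WT replicate 2, 11.4 RPKM in cKO replicate 1 and 13.7 RPKM in cKO replicate 2.

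Among 15 genes of negative feedback on the TCR, 0 passed, 7 had a log2 fold change above 0 and the median was -0.10. With median-of-ratios scaling 12 of the 15 were below 0, against 8 as deposited, and the median was -0.06 without cKO replicate 2. Cblb, a ubiquitin ligase that Egr2 and Egr3 induce in unresponsive T cells, had the lowest p of this list. It had WT values of 28.4 and 29.4 RPKM beside cKO values of 20.3 and 24.1 RPKM, with the cKO mean 0.768 times that of WT (limma unadjusted p = 0.0354, adjusted p = 0.9998). Ubash3b, a phosphatase that acts on TCR kinases, had 16.0 and 14.3 RPKM in the WT libraries, and its cKO values were 20.01 and 18.3 RPKM. Cd5, a surface inhibitor whose level tracks TCR signal strength, reached 232 RPKM in WT replicate 1, 219 RPKM in WT replicate 2, 255 RPKM in cKO replicate 1 and 247 RPKM in cKO replicate 2, with a log2 fold change of 0.15 and a 95% interval of -0.15 to 0.46. The heat shock and handling stress list had 11 of 13 tested genes below 0 and a median of -0.43, and 0 of them passed. Both cKO libraries were below both WT libraries for 6 of the 13 (46.2%) and above for 0, beside 9.06% and 17.4% of all genes. At a limma unadjusted p under 0.05, 4 of the 13 were lower in cKO, beside 106 of all 10709 genes. The median was -0.19 without WT replicate 2 and -0.22 without cKO replicate 2. Its sum was highest in WT replicate 2, where Nr4a2, Nr4a3 and Cd69 of the 8 TCR-induced genes were highest too. Nr4a1, Egr1, Egr2, Egr3 and Myc were highest in WT replicate 1. Within the stress list, Dusp1 was highest in WT replicate 1, and Hspa8 and Hsp90ab1 were highest in WT replicate 2. Dusp1 had WT values of 101 and 68.3 RPKM beside cKO values of 56.2 and 53.4 RPKM (limma unadjusted p = 0.0281, adjusted p = 0.9998). Hspa8 had WT values of 887 and 1197 RPKM beside cKO values of 751 and 677 RPKM. Hsp90ab1 had WT values of 727 and 1005 RPKM beside cKO values of 638 and 542 RPKM. The log2 fold changes were -0.59 for Dusp1, -0.53 for Hspa8 and -0.54 for Hsp90ab1. The part of these stress genes in the values of the 8 was not tested.

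**Figure D5:**
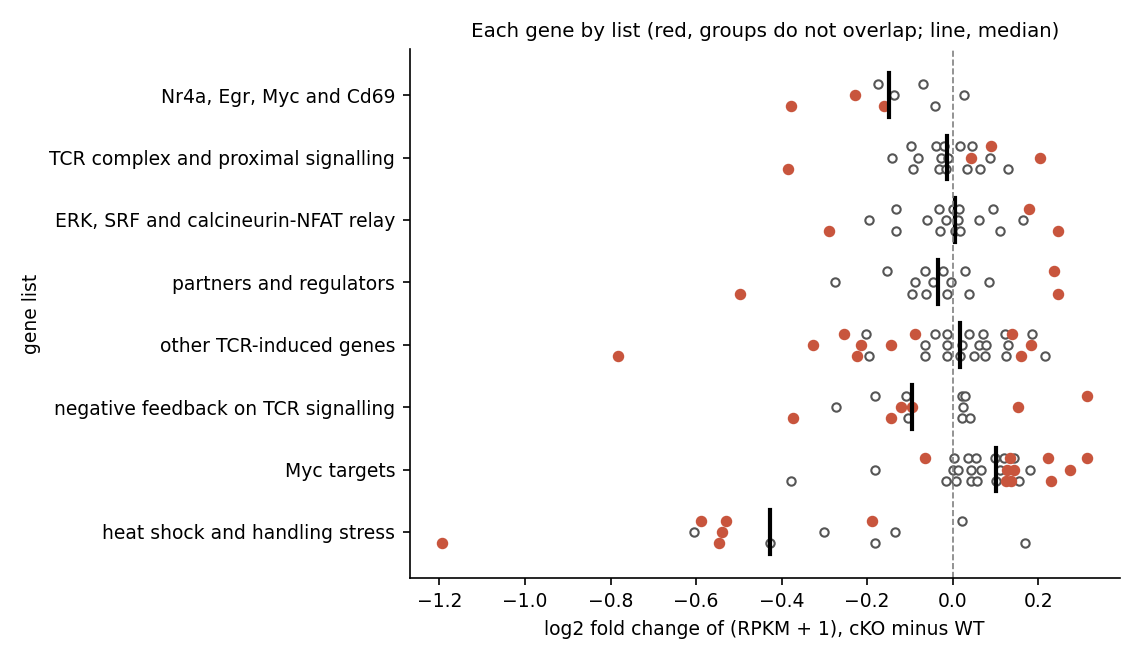
Log2 fold change (cKO minus WT, log2(RPKM + 1) scale) of each tested gene in 8 lists, with red points for genes whose groups do not overlap, open points for the rest and a line at each median. The list of Nr4a, Egr, Myc and Cd69 has its median at -0.15, the TCR complex at -0.01 and the heat shock and handling stress list at -0.43.

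The genes whose values over the 4 libraries were most like those of each of the 8 were sought among 5702 genes that averaged 10 RPKM or more. Likeness was the root mean square difference of the log2(RPKM + 1) deviations from the mean of each gene, over 4 libraries. For Cd69 the nearest were Arap2 (0.046) and Arl5a (0.049), both low in cKO replicate 1. For Nr4a1 they were Hira (0.0074) and Tbrg1 (0.0090), for Nr4a2 Traj39 (0.0089) and Mapkap1 (0.019), and for Nr4a3 Srsf7 (0.016) and Ywhah (0.020). For Egr1 they were Mir700 (0.0059) and Trim35 (0.015), for Egr2 Ly6c1 (0.033) and Ergic1 (0.044), and for Egr3 Zfp395 (0.021) and Elof1 (0.021). For Myc they were Acaa1a (0.0054) and Eri3 (0.0072). None of the 8 genes was among the nearest 2 of another. With 4 libraries many genes share any 1 pattern. The added 1 RPKM shrinks the deviations of a gene as low as Nr4a2, so its small distances do not mean like folds. Nr4a2 was at 1.78 RPKM in WT replicate 1 and 1.22 RPKM in cKO replicate 1, and Traj39 at 22.0 and 17.3 RPKM.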

How the data were processed

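RNA-seq was measured in 4 libraries, 2 WT and 2 cKO, grouped and numbered by the labels, each from RNA of at least 3 mice with single-end reads of 50 nt per the labels' protocols. The authors deposited RPKM values for 19291 RefSeq transcripts; the unit is inferred, since no header names it. HISAT2, DESeq2 and mm10 appear in the submitters' processing notes without a role or version. Nothing used here says which counter was run, whether it read strand or which rows were kept, so reads shared by overlapping transcripts may be divided in an unknown way.

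Rows were named by RefSeq accession (16720 rows) or by the file (1402 rows), with an NCBI RefSeq table of GRCm38.p6. A further 1169 rows, with 10.9% of all RPKM, had no name and were left out. The row of highest mean stood for each gene, and 10709 of 14220 genes averaged 1 RPKM or more. These were tested for genotype alone in limma 3.58.1 (R 4.3.3), on the log2(RPKM + 1) scale. The test was two-sided with robust and trended moderation, and Benjamini-Hochberg adjusted p under 0.05 over the 10709 genes was the threshold. Low genes change by more than their fold on this scale shows. An exact permutation test of 2 against 2 libraries cannot give a p under 0.333 and was not used. P-values set the difference between genotypes against the spread between pools, with the variance of each gene moderated by that of the other genes. The 8 genes and the lists were chosen with earlier results of these data known. Genes named beside the 8 were Nsd2, 7 always named and the 3 of lowest p in each pathway list. The 2 nearest in likeness to each of the 8 were named too. Egr4 was added as a list member, Foxp3 as a marker and Fcer2a as a marker at 0 in 1 library. Dusp1, Hspa8 and Hsp90ab1 were added as the 3 stress genes of lowest p.

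Depth was estimated from whole-read steps of low values, with transcript lengths of GENCODE M21; 62.5% to 64.3% of the values used lay within 0.1 of a whole read, and the depth was chosen to favour this. Read estimates are given only for Nr4a2. The fits were also run on simulated data with the same noise for every gene, which does not show the power of the test in these libraries. Python 3.11.15, pandas 2.3.3 and matplotlib 3.10.9 were used.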

Additional observations from a re-analysis of the deposited data

How the results depend on the processing

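The fits were repeated under 13 alternatives of pseudocount, filter, scaling, transcript choice, moderation, replicate block and left-out library. The count of genes past the threshold over all genes was 0 under 8 of them besides the fit reported. It was 1 with the replicate block and 21 to 66 when a single library was left out, where the lone library of a group is assumed to vary like the other group. None of the 8 TCR-induced genes passed under any of the 13. Of 103 values for single genes under the alternatives, 8 changed sign. The filters, the replicate block and the moderation cannot alter the estimate of a gene, and the sum of transcript rows left those of the 8 genes unchanged. The values from these settings are part of the 103 and could not change sign. The scalings turned Myc, to -0.0098 with median-of-ratios scaling and -0.0099 with TMM scaling. Leaving out a library gave -0.12 to 0.044 for Nr4a1, -0.36 to 0.0095 for Nr4a2, -0.24 to 0.10 for Egr3 and -0.11 to 0.16 for Myc. Nr4a3, Egr1, Egr2 and Cd69 kept their sign under each pseudocount, scaling and left-out library. Nr4a2 gave no value at a filter of 5 RPKM. The cause of these sign changes was not tested, and each of the 4 genes lay within 1 standard error of 0 in the fit reported.

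The labels give both genotypes replicate numbers 1 and 2 without saying that a number marks a shared batch. The within-genotype difference of number 1 minus number 2 correlated across 10709 genes between WT and cKO at 0.503, which with 2 pairs does not show that the numbers pair the libraries, and genes are not independent replicates. With numbers 1 and 2 in both genotypes, the replicate block cannot alter a log2 fold change, so those of the 8 genes were the same by design. In limma with the block, 1638 of 10709 genes had an unadjusted p under 0.05, against 332 without it. Of the 8 genes these included Cd69 (unadjusted p = 0.00752, adjusted p = 0.201) and Egr1 (unadjusted p = 0.0435, adjusted p = 0.314). With 2 libraries per group, the 95% interval of each of the 8 genes without the block reaches -0.33 or lower, so a decrease of that size lies within each interval.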

Other observations

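Several of these genes differed more between the libraries of 1 genotype than between the genotypes. Nab2, the Egr corepressor, was at 37.7 and 37.6 RPKM in the WT and cKO libraries numbered 1 and at 29.6 and 29.5 RPKM in those numbered 2. Nab1 went the opposite way, at 8.93 and 9.84 RPKM in the libraries numbered 1 and 13.1 and 12.4 RPKM in those numbered 2. Nr4a1 stood at 54.5 and 51.9 RPKM against 48.4 and 48.0 RPKM, and Myc at 69.2 and 66.4 RPKM against 57.1 and 61.8 RPKM. These genes were singled out after their values were seen, and the labels do not say what the numbers share.

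The ratio of Nab2 to the summed Egr level was 0.575 and 0.539 in WT and 0.698 and 0.548 in cKO, with cKO replicate 1 apart from the other 3 libraries.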
